A study of Mus musculus with 18 samples.

Results

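The late-onset probes were 65 of the 42006 mouse probes on an Agilent oligonucleotide array that stayed level in wild-type digit tips between E14.5 and E16.5 and then rose by E18.5, with a similar level in embryos lacking Fzd6. They were selected on the measured values themselves. For each probe the log2 ratio of the green (Cy3, embryo RNA) to the red (Cy5, reference RNA) processed signal was averaged over the 3 arrays of a group, and this mean ratio is called the level. A member had to rise by at least 2 log2 units in wild type from E16.5 to E18.5 and to move by less than 1 from E14.5 to E16.5. Its level had to differ by less than 1 between the genotypes at each of the 3 stages, and its green signal had to be flagged well above background on all 3 wild-type E18.5 arrays. Of the 42006 probes, 25532 met the background condition and 191 of these rose by at least 2. Among the 191, 42 had already risen by at least 1 before E16.5, 26 had fallen by at least 1 before then, and 123 had stayed level. The genotype condition then removed the probes that differed by at least 1 at E14.5 (25 of the 123), at E16.5 (29) or at E18.5 (35), with overlap between these, and 65 remained.

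The RNA came from the tips of the forelimb digits of mouse embryos, C57BL/6 and of mixed sex by their labels. Wild-type and Fzd6-/- embryos were bred from heterozygous parents, and both were sampled on 3 embryonic days (E14.5, E16.5, E18.5), with 3 embryos in each of the 6 groups. Fzd6-/- embryos, called KO here, lack Frizzled6 in every tissue, so no group isolates its loss to the nail or the epidermis. All 18 arrays carried embryo RNA in Cy3 and a common reference in Cy5, without a dye swap. The reference combined Universal Mouse Reference RNA, a pool from cultured mouse cell lines, with RNA of 129ES embryonic stem cells.

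Frizzled6 is a receptor for Wnt ligands, and it is known for planar cell polarity, which orients hairs on the mouse skin, and for the growth of normal nails and claws. In the digit tip the surface epithelium gives rise to epidermis and to the claw, while the tissue below holds cartilage, forming bone, muscle tendon, vessels and nerve. Late in gestation the epidermis stratifies and cornifies: its outer cells build a protein envelope and a lipid barrier, and the claw plate hardens with keratins of its own. A dissected tip holds all of these tissues, so a higher signal from more cells of a type and one from more RNA per cell cannot be told apart.

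The files gave each probe an identifier and its 60 bases, and no gene name or chromosome position. None of the 65 sequences was found whole, on either strand, in the RefSeq promoter windows or miRNA hairpins at hand, so the members are named by probe and their genes, roles and positions were not analysed here. The same holds for the Fzd6 probe and for markers of epidermis, claw, muscle, cartilage, blood and other cells: the labelled genotype and tissue were not checked against them.

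3 sets of probe sequences carry the results, each given 5′ to 3′ as on the array. The first 5 belong to members with some of the steepest rises:
Z00026122-1: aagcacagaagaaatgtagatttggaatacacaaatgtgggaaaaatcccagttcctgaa
Z00047870-1: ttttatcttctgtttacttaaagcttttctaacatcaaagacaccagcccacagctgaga
Z00022376-1: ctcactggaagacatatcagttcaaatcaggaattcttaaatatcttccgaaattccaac
Z00024323-1: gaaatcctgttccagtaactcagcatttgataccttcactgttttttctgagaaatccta
Z00071654-1: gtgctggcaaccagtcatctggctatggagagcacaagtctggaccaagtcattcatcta

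Members that read overlapping or near-identical sequence are not separate observations. The next 6 show those found by a shared run of 15 or more bases. Z00022747-1, Z00076845-1 and Z00074548-1 form a trio, of which the first 30 bases of 2 are printed. The first pair of the trio shares 59 bases and carries the substitution C60A, counted from the 5′ end of Z00022747-1. Each of them shares 56 bases with Z00074548-1, whose sequence starts 4 bases earlier. Z00032214-1 and Z00076160-1 overlap by 42 bases. Z00052357-1 and Z00076967-1 differ by C14A, G36A, C45G and A46G, counted from the 5′ end of Z00052357-1, and share a run of 21 bases between the first and the second of these. No other pair of members shared 15 or more bases in a row. The search was for unbroken runs, so likeness broken by gaps or substitutions could be missed. Z00032215-1 and Z00076313-1 are alike over much of their length with such breaks, and may not be separate observations either.
Z00022747-1: ggtctgtgtaccgttctctcgtagaccttg
Z00074548-1: gtggggtctgtgtaccgttctctcgtagac
Z00032214-1: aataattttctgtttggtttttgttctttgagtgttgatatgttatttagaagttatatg
Z00076160-1: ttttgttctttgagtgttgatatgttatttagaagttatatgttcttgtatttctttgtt
Z00052357-1: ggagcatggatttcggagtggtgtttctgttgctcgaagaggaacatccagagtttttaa
Z00076967-1: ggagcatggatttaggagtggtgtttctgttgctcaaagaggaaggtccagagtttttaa

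The last 9 hold 1 of 2 short strings, in capitals, that recurred among members whose later rise was small in KO. CCCTAACC occurs in 4 members, and the fourth of these, Z00057511-1, is shown by its first 30 bases. GAGGAG occurs in 6, of which 5 are shown. Both strings were picked after the values had been seen.
Z00030602-1: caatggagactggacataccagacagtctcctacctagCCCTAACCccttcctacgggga
Z00032151-1: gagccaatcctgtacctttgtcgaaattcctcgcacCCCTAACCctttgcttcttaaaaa
Z00054050-1: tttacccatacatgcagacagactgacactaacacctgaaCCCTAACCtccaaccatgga
Z00057511-1: aacaaatagatgtgtgaCCCTAACCccttc
Z00077545-1: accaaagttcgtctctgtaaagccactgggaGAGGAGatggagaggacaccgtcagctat
Z00024434-1: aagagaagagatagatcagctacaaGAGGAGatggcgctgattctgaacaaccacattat
Z00027948-1: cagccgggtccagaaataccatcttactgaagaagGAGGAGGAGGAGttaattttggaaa
Z00032275-1: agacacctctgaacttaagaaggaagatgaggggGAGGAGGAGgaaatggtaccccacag
Z00066973-1: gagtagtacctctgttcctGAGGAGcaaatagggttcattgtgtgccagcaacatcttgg

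The arrays were alike in coverage: between 59.8% and 69.2% of all probes were well above background in green. The median log2 ratio of the 27991 probes tested, those well above background in green on all 3 arrays of at least 1 group, lay between 0.00 and 0.09 on every array. The arrays sat on 5 slides scanned in 2 batches by scan date, with replicates 1 and 2 of every group in batch 1 and replicate 3 in batch 2. Among the E16.5 and E18.5 arrays each slide carried a single genotype, so slide and genotype cannot be told apart there, and wild-type replicates 1 and 2 of these stages lay on different slides. Nothing in the labels says more about how the embryos of a group were related, so p-values measure the spread between these samples.

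The wild-type rise was what the members were chosen for, and it is given as a description. The rise from E16.5 to E18.5 ran from 2.01 to 7.81 log2 units with a median of 2.45, and 33 members lay under 2.5. It was at least 3 in 25 members, at least 4 in 11 and at least 5 in 6. Array by array, the median level of the 65 was -0.08, -0.07 and 0.11 at wild-type E16.5 and 2.71, 2.57 and 2.82 at wild-type E18.5. The 3 E16.5 medians were ratios of 2 substitute values, which the scanner software set where a signal was not above background. They are not a measured baseline. The arrays of the 2 stages did not overlap for any member, as for 18.8% of the tested probes in that direction. limma, with Benjamini-Hochberg adjustment over the tested probes, called all 65 higher at wild-type E18.5, against 14.4% of the tested probes. Neither count is evidence, since the rule fixed the contrast.

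The median rise moved most, among the choices tried, when the background correction and the normalization were changed together. With normexp background correction and loess normalization in place of the processed signals, the median wild-type rise of the same 65 probes was 0.84. limma called 45 of them higher, against 2066 of the 27989 probes tested on that scale (4036 of 27991 in the main fit). All 65 still lay above 0, between 0.15 and 4.04. On that scale 26 probes of the array met the rule, of which 10 were among the 65.

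The 65 fell into 3 classes by whether their green signal was well above background on the 6 earlier wild-type arrays (E14.5 and E16.5). For 34 members it was so on none of them, for 15 on 1 to 5, and for 16 on all 6. The median wild-type rise was 3.08 in the first class, 2.14 in the second and 2.19 in the third. With normexp and loess it was 0.59, 0.67 and 1.96. The third class, whose earlier signal was measured, was therefore the one whose median moved least.

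For a probe not well above background at E16.5 only a lower bound on the fold can be given. It set the mean normalized green signal at E18.5 against, on each E16.5 array, the higher of the probe's own signal and the dimmest signal well above background, and it is open to dye bias, since no dye was swapped. Of the 34 members in the first class 31 had such a bound. The 31 bounds kept ran from 1.19-fold to 88.9-fold with a median of 2.81, and 17 reached at least 2-fold. A bound was kept only where it showed a rise and was no larger than the ratio-scale rise of the same probe. Z00048600-1 and Z00022747-1 have none because theirs was larger. Z00054647-1 has none because its E18.5 signal did not exceed the limit used for E16.5.

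Z00026122-1 had the steepest rise and the highest wild-type E18.5 level of the 65. Its log2 ratios were -0.18, -0.14 and 0.06 at wild-type E14.5, -0.08, -0.07 and 1.63 at E16.5, and 8.49, 8.79 and 7.63 at E18.5. In KO they were 0.05, 0.72 and -0.01, then -0.11, 0.05 and 0.03, then 7.92, 6.87 and 8.03. Wild-type E16.5 replicate 3 and KO E14.5 replicate 2 were the highest of the earlier arrays, and the KO values at E18.5 overlapped the wild-type ones. The green signal was at least 88.9-fold higher at E18.5 than at E16.5 in wild type and at least 58.9-fold higher in KO.

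Many early values near 0 were not measured levels. When a signal was not above background, the scanner software put a substitute value in its place, and a ratio of 2 such values is the same for all probes of an array, as -0.08 on wild-type E16.5 replicate 1. Such a substitute stood in green on all 3 wild-type E16.5 arrays for 9 members and on all 3 wild-type E14.5 arrays for 18. A spread between such values is not a measured spread of the RNA.

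Z00047870-1 ranked next, and it was below 0 on all but 1 of the earlier arrays. It read 0.34, -0.75 and -0.33 at wild-type E16.5 and 6.80, 6.76 and 5.19 at E18.5, where its green signal was at least 71.0-fold higher. In KO it read -0.11, -1.20 and -0.998 and then 5.81, 5.78 and 5.96. The KO values at E18.5 lay within the range of the wild-type ones.

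Z00048600-1 was the third in steepness. It read -0.08, 1.08 and 0.11 at wild-type E16.5 and 7.28, 5.97 and 6.37 at E18.5, and its KO values were -0.11, 0.05 and -0.50 and then 6.22, 6.36 and 5.39. The genotypes overlapped at both stages.

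Z00022376-1 had the tightest values of the steep members. At E18.5 it read 5.43, 5.37 and 5.73 in wild type and 5.47, 5.19 and 5.78 in KO, a mean difference of -0.03 ± 0.14 (SE). Its earlier values were the substitute ratio on every wild-type array. The SE above pools the spread over all 18 arrays, such values included. For Z00022376-1 the SDs at E18.5 were 0.19 in wild type and 0.30 in KO (n = 3 each). The bound on its rise was 23.7-fold in wild type and 16.8-fold in KO.

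Z00064540-1 was the least even. It read 6.34, 6.35 and 2.99 at wild-type E18.5, an SD of 1.94 (n = 3) and the largest of any member, and 6.32, 4.27 and 4.32 in KO. Replicate 3 was the low one in wild type. Z00061948-1 had the next largest SD, 1.38, with 5.30, 5.05 and 2.80 on those arrays, and again the third array was low. Z00054369-1 had an SD of 1.19 with 2.71, 1.37 and 3.74, and there it was the high one.

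Of the remaining steep members, Z00066973-1 started far below the reference. It read -4.64, -5.73 and -5.01 at wild-type E16.5 and -0.25, -0.80 and 0.71 at E18.5, so its rise of 5.01 brought it to about the reference level. In KO it read -5.50, -6.17 and -6.57 and then -1.04, -1.16 and -0.63, which gave it the lowest KO minus wild-type difference among the members at both stages, -0.96 at E16.5 and -0.83 at E18.5. The rule allowed no difference of 1 or more, and limma called neither of these.

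Z00031224-1, Z00031263-1, Z00024323-1 and Z00071654-1 completed the 10 steepest on the ratio scale, with wild-type rises of 4.74, 4.57, 4.43 and 4.27. Their bounds in wild type were 6.79-fold, 12.8-fold, 10.1-fold and 2.81-fold. None of the 10 was well above background on an earlier wild-type array, so their rises and ranks rest on substitute or dim values. By the bound, Z00074391-1, at 10.4-fold, lay above Z00024323-1, Z00031224-1 and Z00071654-1, and above Z00064540-1, at 7.09-fold. Z00024323-1 was even between the genotypes, with 4.45, 4.15 and 4.66 in wild type and 4.55, 4.20 and 4.80 in KO at E18.5.

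A level is relative to the reference RNA. The wild-type E18.5 mean was above 0, higher in the digit tip than in the reference, in 61 members and below it in 4. Z00075696-1 was the lowest: -5.33, -5.14 and -4.29 at wild-type E16.5 and -2.57, -2.75 and -2.77 at E18.5. KO values were -5.60, -5.90 and -5.34 and then -3.08, -3.09 and -2.90. At E18.5 all 3 KO arrays lay under all 3 wild-type arrays, by a mean of 0.33 that limma did not call. Z00024337-1 rose from -3.52, -3.92 and -4.34 to -1.56, -1.64 and -1.88 in wild type and reached -1.13, -0.63 and -0.43 in KO, the largest genotype difference of any member at E18.5, 0.96. Z00035448-1 ended near 0 at E18.5, at -0.15, -0.47 and 0.10.

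The evenest members at wild-type E18.5 were Z00056014-1, with 0.51, 0.43 and 0.46, Z00074391-1, with 0.85, 0.82 and 1.00, and Z00075696-1. Z00056014-1 was measured on all 6 earlier wild-type arrays, at -1.70, -1.66 and -1.71 and then -2.19, -2.10 and -2.15. Its KO values were -1.19, 0.89 and -1.84 at E14.5, where replicate 2 stood apart, then -1.59, -1.48 and -1.66, and 0.64, 1.07 and 1.08 at E18.5. Z00074391-1 rose from -4.26, -2.58 and -2.98 to its E18.5 values, a bound of 10.4-fold in wild type and 23.2-fold in KO.

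The trio of overlapping probes gave 3 readings of 1 sequence. At wild-type E16.5 Z00022747-1 read -2.42, -2.78 and -2.97, Z00076845-1 read -2.60, -2.12 and -2.68, and Z00074548-1 read -2.14, -2.68 and -2.49. At wild-type E18.5 they read 0.77, 1.15 and 1.09, then 0.84, 1.02 and 1.11, then 0.75, 0.96 and 1.03. In KO at E18.5 they read 1.05, 1.25 and 1.34, then 1.09, 1.43 and 1.26, then 0.85, 1.16 and 1.08. The wild-type rises were 3.72, 3.46 and 3.35. The detection flag was less even: well above background on 0, 6 and 5 of the earlier wild-type arrays, so the detection classes separated probes of the same sequence.

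The overlapping pair Z00032214-1 and Z00076160-1 rose by 3.14 and 3.01 in wild type and by 3.49 and 2.77 in KO. The pair with 4 substitutions, Z00052357-1 and Z00076967-1, rose by 3.48 and 2.75 in wild type and by 2.58 and 1.74 in KO. In both pairs the same member was the higher in each genotype.

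The members with rises nearest the threshold show how little separated them from other probes. Just inside, Z00041762-1, Z00052765-1 and Z00064701-1 rose by 2.02, 2.02 and 2.01 in wild type. Just outside, with every other condition met, Z00050677-1, Z00029399-1 and Z00077901-1 rose by 1.999, 1.998 and 1.995. In KO the 3 inside rose by 2.75, 2.27 and 2.34, and the 3 outside by 0.80, 2.89 and 0.70.

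The reference channel moved far less than the embryo channel. From E16.5 to E18.5 in wild type the members' median change was 2.91 in green and 0.33 in red, on the log2 scale of each channel, against a red median of 0.17 over the tested probes. In KO it was 2.87 in green and 0.25 in red. The red signal was higher at E18.5 in 53 members in wild type and in 55 in KO, which lowers a ratio. For 16 members red was well above background on no array, so their ratios rest on a substitute or dim reference.

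The KO rise was bounded by the rule, which held the genotypes within 1 of each other at both stages, so its direction was set by the choice of members. The KO rise ran from 0.41 to 7.62 with a median of 2.60, and was at least 2 in 47 members, between 1 and 2 in 10 more, and under 1 in 8. Median levels were -0.11, 0.05 and -0.27 on the KO E16.5 arrays and 2.81, 2.45 and 2.33 on the KO E18.5 arrays. The first 2 of the E16.5 medians were again the substitute ratio of their array. The arrays of the 2 stages did not overlap in 55 members, against 19.4% of the tested probes in that direction. limma called 58 of the 65 higher at KO E18.5, against 14.4% of the tested probes, and nothing is read from this count. At KO E18.5, 56 members were well above background on all 3 arrays, 7 on 1 or 2, and 2 on none.

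Before E16.5 the KO embryos were not held level by the rule except through the genotype limits. In them 61 members moved by less than 1 between E14.5 and E16.5, 3 rose by at least 1 and 1 fell by at least 1. The median change was 0.02 in KO and 0.12 in wild type.

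The stage steps were of similar size within slides. On the slide that held 1 wild-type array of each stage, the median rise was 2.64, all 65 members were above 0 and 50 rose by at least 2. In scan batch 1 alone, with 2 arrays per group, the median was 2.62. For KO, the slide with replicates 1 and 2 of both stages gave 2.75 with all 65 above 0, and the slide with replicate 3 gave 2.73 with 62 above 0. Leaving out 1 wild-type array of either stage kept between 50 and 63 of the 65 at a rise of 2 or more, 51 without wild-type E18.5 replicate 3.

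The members were noisier than other probes. The median SD over the 3 wild-type E18.5 arrays was 0.41 for the members and 0.21 for the tested probes, and at KO E18.5 it was 0.38 and 0.19. At E16.5 it was 0.33 and 0.21 in wild type and 0.41 and 0.17 in KO. Wild-type E18.5 replicate 3 was the highest of its group in 33 members and the lowest in 19, while replicates 1 and 2 were the highest in 14 and 18.

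Differences between the genotypes were limited to less than 1 by the rule and centred near 0. The median KO minus wild-type level was 0.16 at E14.5, 0.00 at E16.5 and -0.09 at E18.5. KO was the higher in 44, 33 and 25 of the 65 at the 3 stages. The E14.5 median equals the difference between the mean substitute ratios of the 2 groups, as held by Z00022376-1 among others. It is thus no measured genotype difference, and members that hold it are among the 44. Differences within 0.5 either way were found in 52, 43 and 36 members. The direction of this balance depended on the scaling: with normexp and loess the E18.5 median was 0.14 and KO was the higher in 44 members, and with each array centred on its median the E14.5 median was 0.00 and KO was the higher in 32.

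At E14.5 wild-type and KO arrays did not overlap in 14 members, 9 with KO above and 5 with KO below, against 41.5% of the tested probes. limma called 1 member, against 12.7% of the tested probes. This was Z00030940-1, which read -0.89, -1.14 and -0.62 in wild type and 0.09, -0.13 and -0.33 in KO. Its difference was 0.76 ± 0.23 (SE; limma, adjusted p = 0.0422), and its arrays did not overlap. Leaving out wild-type replicate 1 or 2 or KO replicate 1 or 2 ended the call, with adjusted p between 0.102 and 0.173. It also ended with median centring (0.59, adjusted p = 0.0947), where limma called another member, with Cy3 alone (0.36, adjusted p = 0.407), with no filter on dim probes (adjusted p = 0.0671), with a replicate block (0.0600), with the slide as a fixed term (0.253) and with normexp and loess (0.23, adjusted p = 0.515).

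At E16.5 they did not overlap in 7 members, 4 with KO above and 3 below, against 32.2%. limma called none, against 16% of the tested probes. An unadjusted p under 0.05 in limma, which every called probe also has, was found in 6 members, and nothing is read from this count. The largest differences were those of Z00055974-1, 0.94, Z00024993-1, 0.92, and Z00054369-1, 0.82, and the lowest after Z00066973-1 were those of Z00032215-1, -0.80, and Z00075696-1, -0.69. Z00054369-1, Z00032215-1 and Z00066973-1 were well above background in green on no E16.5 array of either genotype. Z00024993-1 was so on none in wild type. The differences of these probes rest on substitute or dim values. Z00055974-1 read 0.78, 1.54 and 3.18 in wild type and 1.89, 3.53 and 2.89 in KO, so the groups overlapped. Z00024993-1 read -1.17, -1.25 and -0.28 in wild type and 0.14, -0.68 and 0.58 in KO, with overlap at 1 array of each.

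At E18.5 they did not overlap in 13 members, 6 with KO above and 7 below, against 29.9%. limma called 1 member, against 13.1% of the tested probes. This was Z00025904-1, with 1.01, 0.64 and 1.54 in wild type and 0.51, 0.50 and 0.03 in KO, a difference of -0.72 ± 0.19 (SE; limma, adjusted p = 0.0216). The call ended without wild-type replicate 3 (-0.48, adjusted p = 0.0980) and without KO replicate 3 (-0.56, adjusted p = 0.0805). It ended too with the compared arrays alone (adjusted p = 0.166), where limma called another member, and in scan batch 1 alone (-0.32, adjusted p = 0.252), and with normexp and loess the difference was -0.20 (adjusted p = 0.304). The largest positive differences after Z00024337-1 were 0.85 for Z00058906-1 and 0.76 for Z00036873-1, which read 2.06, 2.39 and 2.24 in wild type and 2.96, 2.91 and 3.08 in KO. The lowest after Z00066973-1 were -0.80 for Z00054050-1 and -0.77 for Z00024434-1.

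The members also differed in the size of the KO rise, a measure the rule bounded. Of the 8 members whose KO rise was under 1, 3 hold CCCTAACC and 4 hold GAGGAG, and the other is Z00055974-1, which rose by 0.41. Of the 10 members with either string, 7 rose by less than 1 in KO, against 1 of the other 55. Median rises were 2.15 in wild type and 0.82 in KO for the 10, and 2.73 and 2.77 for the 55. The strings were picked from the members with a small KO rise, so these counts and medians restate that choice and support nothing.

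Z00032151-1, 1 of the 4 with CCCTAACC, was level in wild type up to E16.5. In wild type it read 1.18, 1.16 and 1.19, then 1.16, 1.49 and 1.43, then 3.28, 3.14 and 4.03. In KO it read 1.36, 1.33 and 1.65, then 1.75, 2.51 and 1.86, then 3.26, 2.96 and 2.33. KO was above wild type on every array at E16.5 and overlapped it at E18.5. Its rise was 2.13 ± 0.26 (SE) in wild type and 0.81 ± 0.26 in KO, and the KO minus wild-type difference of the rises was -1.32 ± 0.37 (limma, adjusted p = 0.0351). It was the only member that limma called for this difference, against 10.3% of the tested probes. More negative differences that were not called were those of Z00055974-1 (-1.70), Z00024434-1 (-1.57), Z00077545-1 (-1.40), Z00032275-1 (-1.35) and Z00030602-1 (-1.35). The test used the same group means as the rule, and choosing probes with a wild-type rise of at least 2 favours a lower KO rise, so this p supports nothing.

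That call was not firm. It ended without KO E16.5 replicate 2 (adjusted p = 0.0863), without KO E18.5 replicate 2 (0.0585) or 3 (0.0671), without wild-type E16.5 replicate 1 (0.0872) and without wild-type E18.5 replicate 3 (0.0758). With normexp and loess the difference was -1.07 (adjusted p = 0.120). In the fit with the replicate number as a block the adjusted p was 0.0518.

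The other 3 members with CCCTAACC also rose less in KO than in wild type, which was not a call for any of them. Z00030602-1 read 1.16, 1.69 and 1.66 at wild-type E16.5 and 3.53, 3.27 and 4.22 at E18.5, and 1.70, 2.62 and 2.00 and then 3.31, 3.09 and 2.37 in KO. Z00057511-1 rose by 2.07 in wild type and 0.85 in KO, and Z00054050-1 by 2.06 and 1.04. At E16.5 the KO arrays of Z00054050-1 and Z00057511-1 overlapped the wild-type ones. Z00054050-1 read 1.33, 2.01 and 1.82 in wild type and 1.85, 2.76 and 1.19 in KO. Z00057511-1 read 1.30, 1.83 and 1.75 and then 1.81, 2.66 and 1.86. In Z00030602-1, as in Z00032151-1, they did not overlap, with 1.697 the lowest in KO and 1.688 the highest in wild type. Z00030602-1 had risen by 0.59 in wild type from E14.5. All 4 were well above background on all 12 earlier arrays. In each of the 4, the highest E18.5 array was wild-type replicate 3 and the lowest was KO replicate 3, and KO E16.5 replicate 2 was the highest E16.5 array.

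The share of members with a string picked from the members is high by that choice, and the shares are given only as a description. Among the 27991 tested probes 34 hold CCCTAACC, 0.121%, against 6.15% of the members, and its complement GGTTAGGG occurs in 14 (0.05%) and in no member. Of the 34, 21 rose by at least 1 in wild type from E16.5 to E18.5 and 8 did so in KO, against 1131 and 1637 of the 27991. Their median rise was 1.24 in wild type and 0.78 in KO. Over the 30 that are no members, median ratios were 0.89, 0.95 and 0.90 at wild-type E16.5, 1.05, 1.45 and 1.03 at KO E16.5, 1.92, 2.18 and 1.94 at wild-type E18.5, and 2.33, 2.03 and 1.59 at KO E18.5. The rise thus extended to array probes outside the 65, including the just-excluded Z00050677-1 and Z00077901-1. Whether these probes read related transcripts was not tested.

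GAGGAG was common on the array, in 680 of the tested probes (2.43%), against 9.23% of the members it was picked from, and its complement CTCCTC occurs in 635 (2.27%) and in no member. Of the 680, 53 rose by at least 1 in wild type (7.79%) and 54 in KO (7.94%), against 4.04% and 5.85% of all tested probes, and the median wild-type change was 0.01. Members with it did not share one course. Z00066973-1 and Z00032132-1 rose by 5.14 and 2.73 in KO. Z00077545-1, Z00024434-1, Z00027948-1 and Z00032275-1 rose by 2.06 to 2.21 in wild type and by 0.60 to 0.81 in KO.

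3 of those 4 shared their lowest arrays. At wild-type E16.5 Z00077545-1 read -0.48, 0.46 and 0.94, Z00027948-1 read 0.07, 0.83 and 1.39, and Z00032275-1 read -0.25, 0.66 and 0.97, each lowest on replicate 1. At KO E18.5 they read 2.43, 2.15 and 1.11, then 2.81, 2.40 and 1.65, then 2.45, 1.99 and 1.32, each lowest on replicate 3. Z00024434-1 also had its lowest wild-type E16.5 value, -0.01, and its lowest KO E18.5 value, 1.43, on those arrays. It differed from them elsewhere, with 2.62, 3.23 and 2.22 at wild-type E18.5, where the other 3 were highest on replicate 3, and it was well above background on no array of the other 5 groups.

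AATAAA, the letters of the usual polyadenylation signal, occurs in 12 of the 65 members, against 7.68% of the tested probes, and its complement TTTATT in 4 members (6.15%), against 3.14%. Of the 2151 tested probes with AATAAA, 4.32% rose by at least 1 in wild type, close to the 4.04% of all tested probes. The median GC content was 45% in the members and in the tested probes. These letters describe the probes and say nothing of what binds the transcripts.

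The course of the 65 was summarized by their median on each of the 18 arrays. Z00024323-1 and Z00022376-1 followed it most closely, each with a Pearson correlation of 0.994, and Z00048600-1 came next with 0.991. The probes outside the 65 that were nearest were Z00073023-1 (0.973), Z00026541-1 and Z00025337-1 (both 0.962). Z00073023-1 and Z00026541-1 differed by more than 1 between the genotypes at E16.5, at -1.50 and -1.29, and had risen by 1.58 and 1.43 before then. Z00025337-1 rose by 1.40 in wild type and 1.35 in KO. The correlations share arrays and the rise they were chosen for, so they are descriptions. On most earlier arrays the median was the substitute ratio, which Z00024323-1 and Z00022376-1 also held, so their closeness was partly set by those values.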

How the data were processed

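The deposited scanner files of 18 two-colour arrays give Cy3 and Cy5 intensity per spot, background-subtracted and dye-normalized as processed signals by Agilent Feature Extraction 9.5.1.1, per the file headers, with other flags for background, saturation and substitute values. The authors' deposited value table follows the log10 ratio of Cy3 to Cy5 plus a constant per probe whose origin is not stated. It held 41 of the 65 members.

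Control spots were left out, spots of a probe were averaged, and log2(Cy3/Cy5) was fitted with limma 3.58.1 in R 4.3.3, with 1 mean per group over all 18 arrays, eBayes and Benjamini-Hochberg adjustment over 27991 probes (threshold 0.05, two-sided). The script was tested on simulated data. The number of arrays limits the precision. A rise is the E18.5 mean minus the E16.5 mean.

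Members, lists and probes were chosen with earlier results of these data known. Probes named by rule were the 10 steepest, the extremes of wild-type E18.5 level, of genotype difference at E16.5 and E18.5 and of SD, those nearest the threshold, those sharing 15 or more bases, and those nearest the median course; the rest were picked after their values were seen.

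At E16.5 same-numbered wild-type and KO samples deviated together (correlations 0.233, 0.376 and 0.314). The labels do not say what the number marks, and the main fit did not pair them. The replicate number entered only the fit with a replicate block. Alternatives were normexp (offset 50) with loess, Cy3 alone scaled to its 75th percentile, the value table, median centring, no filter on dim probes, a replicate block, scan batch, slide, the compared arrays alone and each array left out.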

Additional observations from a re-analysis of the deposited data

Results flagged for a closer look

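Z00032151-1 rose by 2.13 in wild type and by 0.81 in KO from E16.5 to E18.5. The call on the difference of the rises, -1.32 ± 0.37 (SE; limma, adjusted p = 0.0351), drew attention to it, not the size. The difference was negative under every alternative tried, from -0.90 to -1.65, while the adjusted p ranged from 0.0219 to 0.330. The test used the group means by which the member was chosen, and choosing a wild-type rise of at least 2 favours a negative difference, so the p is a description. Groups of 3 arrays were too small for the test of single outlying samples.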

How the results depend on the processing

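The number of probes meeting the rule was 26 with normexp and loess and 41 in the value table, which held 41 of the members. It was between 59 and 79 with 1 array left out. Similar counts hid different probes: 66 passed with Cy3 alone, of which 35 were members, 65 without wild-type E18.5 replicate 3, of which 47 were, and 59 without wild-type E16.5 replicate 1, of which 49 were. The median wild-type rise of the members was 0.84 with normexp and loess, 2.77 for Cy3 alone, 2.63 in the value table and between 2.40 and 2.64 with 1 array left out, and the median KO rise was 1.01 with normexp and loess and between 2.59 and 2.71 with 1 array left out. Calls of a wild-type rise numbered 41 in the value table and 64 to 65 with 1 array left out, and calls of a KO rise 37 and 52 to 60. For KO against wild type at E14.5 the count was 0 with normexp and loess, the value table, no filter or the slide as a fixed term, 2 for Cy3 alone, the scan batch or scan batch 1 alone, 6 with the compared arrays alone, and 0 to 2 with 1 array left out. At E16.5 it was 1 for Cy3 alone or the compared arrays alone, 2 in scan batch 1 alone, and 0 to 4 with 1 array left out, the 4 without wild-type replicate 3. At E18.5 it was 4 with normexp and loess, 3 for Cy3 alone, 0 in scan batch 1 alone, and 0 to 5 with 1 array left out, the 5 without wild-type replicate 2 and the 0 without KO replicate 3. Counts over all tested probes moved as well. At E14.5 they were 2395 higher and 2393 lower with the compared arrays alone, against 1550 and 2007 in the main fit. At E16.5 they were 2864 and 2275 without wild-type replicate 3, against 2293 and 2199. At E18.5 they were 2756 and 2574 without wild-type replicate 2 and 1602 and 877 with normexp and loess, against 1798 and 1855. The member counts are descriptions, and nothing is read from them. The cause of these changes was not tested.

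The fit with a replicate block called 65, 58, 0, 0 and 1 members (wild-type rise, KO rise, then the genotypes from the earliest stage to the last), so the E14.5 call and that of the unequal rise of Z00032151-1 were lost. At every stage same-numbered samples share a scan batch as well as a number, and wild-type and KO E14.5 replicate 3 share a slide. The genotype correlations at E14.5 and E18.5 lay between -0.199 and 0.0535. The slide as a fixed term could not be fitted for the genotypes at E16.5 or E18.5. Of 520 values of the rises of named members under an alternative, 451 moved by less than the spread between arrays, 67 moved more, and 2 changed sign, both of the KO rise of Z00055974-1: -0.0060 with normexp and loess and -0.032 without KO E16.5 replicate 1, against 0.79 without KO E16.5 replicate 2. Median centring moved the median genotype difference of the tested probes at E14.5 from 0.02 to -0.14 and their median KO change after E16.5 from -0.07 to -0.21. It changed the probes called higher and lower from 1550 and 2007 to 600 and 2578 at E14.5, and from 4021 and 5211 to 2563 and 6370 for the KO change. Signal over background limits the members that were dim before E18.5, as their bounds show, and scan batch 1 alone, the slide as a fixed term and the comparison of rises were added after seeing the data.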
